A study of Mus musculus with 34 samples.

Results

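The change in gene expression from day 2 (D2) to day 7 (D7) of adipogenesis was described within brown preadipocytes that express the K36M mutant of histone H3.3 (H3.3K36M). The comparison used 1 RNA-Seq library per time point. Each gene was represented by its RefSeq transcript with the highest mean level over the 14 RNA-Seq libraries, and genes with an RPKM of at least 1 at D2 or D7 were kept. RPKM is a read count divided by transcript length and library size. This left 12466 of 23109 genes.

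The cells were brown preadipocytes from the interscapular fat of newborn mice, immortalized with SV40T and infected with retrovirus expressing FLAG-tagged H3.3K36M or wild-type (WT) H3.3. The labels describe C57BL/6J cells carrying floxed alleles of the glucocorticoid receptor that were given an empty or a Cre vector, whereas the methods describe preadipocytes of WT mice. Confluent cells (D0) received insulin, the thyroid hormone T3, IBMX, dexamethasone, and indomethacin until D2, and then a medium with insulin and T3 but without the other 3 agents until D7. Time and the change of medium therefore cannot be told apart. With 1 library per time point, no difference has a replicate check and no test was made. The 95% intervals below are exact Clopper-Pearson intervals of the reads and cover counting error only. "Higher" and "lower" mean an RPKM ratio past 2-fold unless values are given. The median of a list is taken over its genes kept in each cell population, so the genes behind 2 medians can differ. *Nr3c1*, which encodes the glucocorticoid receptor, had 17.6 RPKM at D2 and 24.2 at D7 in H3.3K36M cells, and 17.7 and 23.3 in WT cells.

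Adipogenesis in culture starts with a hormone cocktail: IBMX blocks the breakdown of cAMP and dexamethasone activates the glucocorticoid receptor. These signals switch on transcription factors that lead to PPARγ and C/EBPα, which in turn activate genes for lipid uptake, synthesis, and storage. H3.3K36M is a histone mutant that acts dominantly to deplete methylation at lysine 36 of histone H3.

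In H3.3K36M cells, 1952 genes were higher at D7 than at D2 (15.7% of those kept) and 875 were lower (7.02%). In WT cells the same shares were 15.7% and 5.08%. These shares are the background for the counts of list genes given below. The median log2 ratio of D7 to D2 over all kept genes was 0.07 in H3.3K36M cells. The counting interval excluded no change for 1879 of the higher and 780 of the lower genes. The lower genes included lipid storage genes and genes that respond to the hormone cocktail. The higher genes included interferon-stimulated genes, antigen presentation genes, chemokines, complement components, and markers of preadipocytes. More genes had large increases than large decreases: 752 were over 4-fold higher and 224 over 4-fold lower, and 218 were over 16-fold higher against 71 over 16-fold lower. Each count includes genes at 0 in the other library, which have no measured ratio: 62 higher genes at 0 at D2 and 56 lower genes at 0 at D7. Most of the 71 are thus genes without a read at D7.

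**Figure D1:**
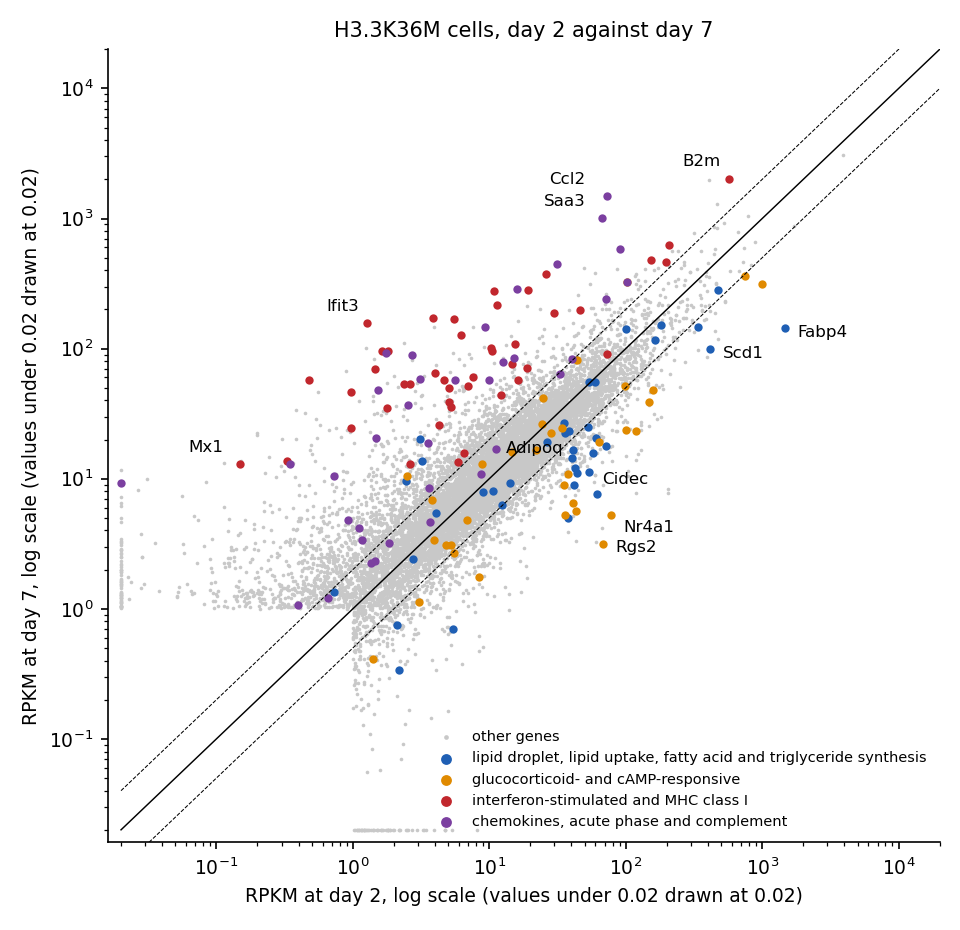
RPKM of the 12466 kept genes at D2 (x axis) and D7 (y axis) in H3.3K36M cells, both on log scales, 1 point per gene. The solid line marks equal levels and the dashed lines 2-fold; lipid genes (blue) and hormone-responsive genes (orange) lie mostly below the solid line, immune genes (red and purple) mostly above it, and a gene of 2 lists has the colour drawn last.

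The 2 libraries had 12529719 (D2) and 12213559 (D7) mapped reads, so that 3 reads on a transcript of 1 kb corresponded to 0.239 and 0.246 RPKM. Short transcripts had lower ratios. Among 241 kept genes whose longest annotated transcript was under 500 nt, the median log2 ratio was -0.68 and 35.7% were lower at D7, while the 818 genes of at least 7000 nt had a median of 0.13. In WT cells the same length classes had medians of -0.40 and 0.03. The 78 ribosomal protein genes had a median of -0.33 in H3.3K36M and -0.55 in WT cells. Without genes under 1000 nt, 1799 were higher and 711 lower in H3.3K36M cells. Across 13130 genes with at least 1 RPKM in any of the 6 adipogenesis libraries, the levels at D7 in H3.3K36M cells had a Spearman rho of 0.888 with D2 and 0.898 with D0 of the same cells, and of 0.925, 0.810, and 0.907 with WT cells at D0, D2, and D7. These are descriptions across genes, which are not independent.

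The genes that adipogenesis induces by D2 were first taken from the WT libraries, so that their choice used neither library of the comparison. In WT cells 1140 genes were higher at D2 than at D0, and 1059 of them were kept in H3.3K36M cells. From D2 to D7 in H3.3K36M cells, 439 of these (41.5%) were lower, 28 were higher, and 592 were neither. Their median log2 ratio was -0.83. Of the 2103 genes lower at D2 than at D0 in WT cells, 1953 were kept in H3.3K36M cells, and 1206 of these (61.8%) were higher at D7, 25 were lower, and 722 were neither. Their median log2 ratio was 1.23. Against the shares over all genes, 7.02% lower and 15.7% higher, the induced genes held more lower genes and the repressed genes more higher genes. The choice rests on WT cells, so these genes need not have moved the same way by D2 in H3.3K36M cells. The paper reports that part of the genes induced in WT cells failed to be induced in H3.3K36M cells.

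Induced and repressed genes were also chosen by the same rule in the control shRNA libraries of another experiment, which share no library with either cell population here. Of 1289 kept genes induced in these libraries, 447 (34.7%) were lower from D2 to D7 in H3.3K36M cells, with a median log2 ratio of -0.76. In WT cells 278 of 1306 (21.3%) were lower, with a median of -0.49. Of the genes repressed in the control shRNA libraries, 1008 of 1769 (57.0%) were higher in H3.3K36M and 948 of 1675 (56.6%) in WT cells. Over all kept genes, 7.02% were lower in H3.3K36M and 5.08% in WT cells, and 15.7% were higher in each. With 1 library per condition, the differences between the cell populations were not tested.

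**Figure D2:**
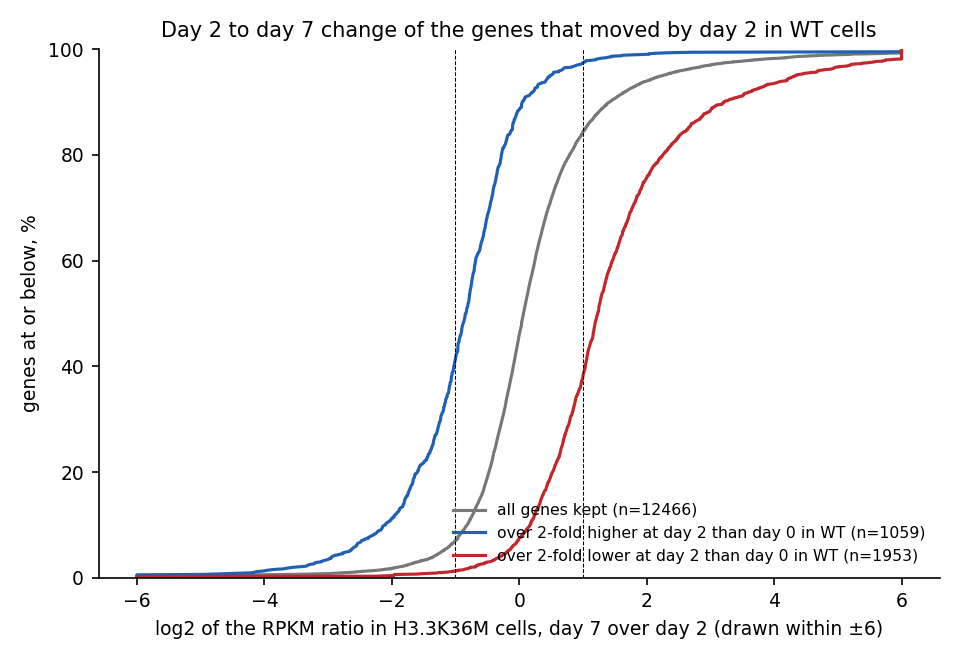
Cumulative distribution of the log2 RPKM ratio of D7 to D2 in H3.3K36M cells for all kept genes (grey), for 1059 genes induced from D0 to D2 in WT cells (blue), and for 1953 genes repressed from D0 to D2 in WT cells (red). Dashed lines mark 2-fold; the blue curve lies left of the grey curve and the red curve right of it.

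Lipid storage genes had the lowest median of all lists. Of 21 genes for lipid droplets, lipolysis, and lipid uptake, 19 were kept, 12 were lower, and 1 was higher, with a median log2 ratio of -1.51. In WT cells 2 were lower and 6 higher, with a median of 0.57. Over all kept genes 7.02% were lower and 15.7% higher in H3.3K36M cells, and 5.08% and 15.7% in WT cells. *Fabp4*, the fatty acid binding protein of adipocytes (mm9 chromosome 3 from 10204347 to 10208576), had 18.5, 1473, and 143 RPKM at D0, D2, and D7 in H3.3K36M cells. The D2 level was 10.3-fold above that at D7, a log2 ratio of -3.36 (-3.45 to -3.28). In WT cells it had 37.6, 3249, and 2644 RPKM, a log2 ratio of -0.30 (-0.32 to -0.27).

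*Cidec*, which coats and enlarges lipid droplets (chromosome 6 from 113374628 to 113385754), had 0.444, 54.0, and 11.4 RPKM at D0, D2, and D7, whereas WT cells had 0.604, 138, and 236. Its level at D7 was thus above that at D0 in H3.3K36M cells, but below that at D2. *Mgll*, which completes lipolysis by cleaving monoglycerides, had 62.0 RPKM at D2 and 7.58 at D7. The lipases *Pnpla2* (71.9 and 17.8 RPKM) and *Lipe* (44.3 and 11.0) were lower as well, with log2 ratios of -2.02 and -2.01. Not every member was past 2-fold: *Lpl*, which releases fatty acids from lipoproteins, had 470 and 284 RPKM, the fatty acid transporter *Cd36* 10.7 and 8.09, and *Plin1*, the perilipin of adipocytes, 14.2 and 9.33. The last 2 had 112 and 144 RPKM at D7 in WT cells. The member that was higher was *Slc27a1*, a fatty acid transport protein (3.20 and 13.6 RPKM).

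Of 19 kept genes of fatty acid and triglyceride synthesis, 6 were lower and 2 higher, with a median log2 ratio of -0.48. In WT cells 12 of 19 were higher and 1 was lower, with a median of 1.23. All kept genes had shares of 15.7% higher in each population, and of 7.02% lower in H3.3K36M and 5.08% in WT cells. *Scd1*, the main stearoyl-CoA desaturase (chromosome 19 from 44468941 to 44482199), had 28.2, 414, and 98.8 RPKM at D0, D2, and D7, a log2 ratio of -2.07 (-2.11 to -2.03) from D2. In WT cells it had 25.5, 1229, and 2644 RPKM, a log2 ratio of 1.11 (1.09 to 1.12). *Fasn*, the fatty acid synthase, had 53.5 and 55.0 RPKM in H3.3K36M cells and 63.2 and 519 in WT cells. *Dgat1*, *Gpam*, and *Lpin1* of triglyceride synthesis were lower, with log2 ratios of -1.81, -1.48, and -1.29. *Irs2*, an adaptor of the insulin receptor, was lower in both cell populations, with 41.5 and 8.96 RPKM in H3.3K36M cells and 102 and 22.9 in WT cells.

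Some adipocyte genes were higher at D7 within H3.3K36M cells. *Gpd1*, which makes the glycerol backbone of triglycerides, had 3.09 RPKM at D2 and 20.1 at D7, against 16.5 and 262 in WT cells. *Thrsp*, a regulator of lipogenesis, had 2.46 and 9.54 RPKM, against 0.151 and 312 in WT cells. *Cfd* (adipsin), secreted by adipocytes, had 1.47 and 20.5 RPKM, against 1.64 and 207. *Adipoq*, the adipokine adiponectin, had 10.6 and 21.0 RPKM, a log2 ratio of 0.98 (0.71 to 1.26), against 6.16 and 287. At D7 each of these 4 genes was thus lower in H3.3K36M than in WT cells. Of 9 kept adipokine genes, 2 were lower in H3.3K36M cells, *Angptl4* and *Agt* (log2 ratios of -2.61 and -1.88), and 1 was higher, *Cfd*. The median was -0.61, and 0.17 in WT cells. These 9 genes are too few to set against the shares over all kept genes, 15.7% higher and 7.02% lower.

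Among 17 adipogenic transcription factors, 3 were lower and 1 higher, with a median log2 ratio of -0.14. *Pparg*, the nuclear receptor that directs adipogenesis (chromosome 6 from 115311239 to 115440419), had 11.5, 49.6, and 21.4 RPKM at D0, D2, and D7, a log2 ratio of -1.21 (-1.37 to -1.06). In WT cells it had 13.4, 66.7, and 101 RPKM. *Cebpa* had 6.33, 44.9, and 24.4 RPKM, short of 2-fold, against 6.64, 208, and 232 in WT cells. The others that were lower were *Zbtb16*, a target of the glucocorticoid receptor (36.1 and 5.28 RPKM), and *Ebf2*, a factor of brown fat precursors (17.8 and 7.60). *Stat5b* was higher (4.10 and 9.50 RPKM). *Mlxipl*, the glucose-responsive factor ChREBP, had 2.52 and 3.66 RPKM in H3.3K36M cells and 1.13 and 34.1 in WT cells. In WT cells 5 of the 17 factors were higher and 1 was lower. The shares over all kept genes were 15.7% higher in each population, and 7.02% lower in H3.3K36M and 5.08% in WT cells.

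Of 19 thermogenic and brown fat genes 10 were kept, of which 5 were lower and 1 was higher (*Adrb3*, 0.114 and 1.05 RPKM). Their median log2 ratio was -1.10. In WT cells the median was 1.08, over the 13 genes kept there. *Ucp1*, the uncoupling protein that defines brown fat, had 4 reads at D2 and 0 at D7 in H3.3K36M cells, and 0.0457 RPKM at D7 in WT cells, so the defining marker of the labelled lineage was near 0 in both. *Ppargc1a*, a coactivator of mitochondrial genes, had 11 and 18 reads. Mitochondrial genes were lower by smaller steps. Of 23 respiratory chain genes 4 were past 2-fold lower and 22 had a ratio below 1, with a median log2 ratio of -0.48. In WT cells the median was 0.42 and 0 were past 2-fold. *Cycs* (cytochrome c) and *Cox5a* had log2 ratios of -2.49 and -1.21. Of 20 genes of fatty acid beta-oxidation, 5 were lower, among them *Hadh* (83.4 and 32.8 RPKM) and *Acadm* (45.7 and 19.1), with a median of -0.65 against 0.15 in WT cells. Beside the thermogenic, respiratory chain, and beta-oxidation counts, 7.02% of all kept genes were lower and 15.7% higher in H3.3K36M cells. Several respiratory chain transcripts are short, and the part of transcript length in these ratios was not tested.

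**Figure D3:**
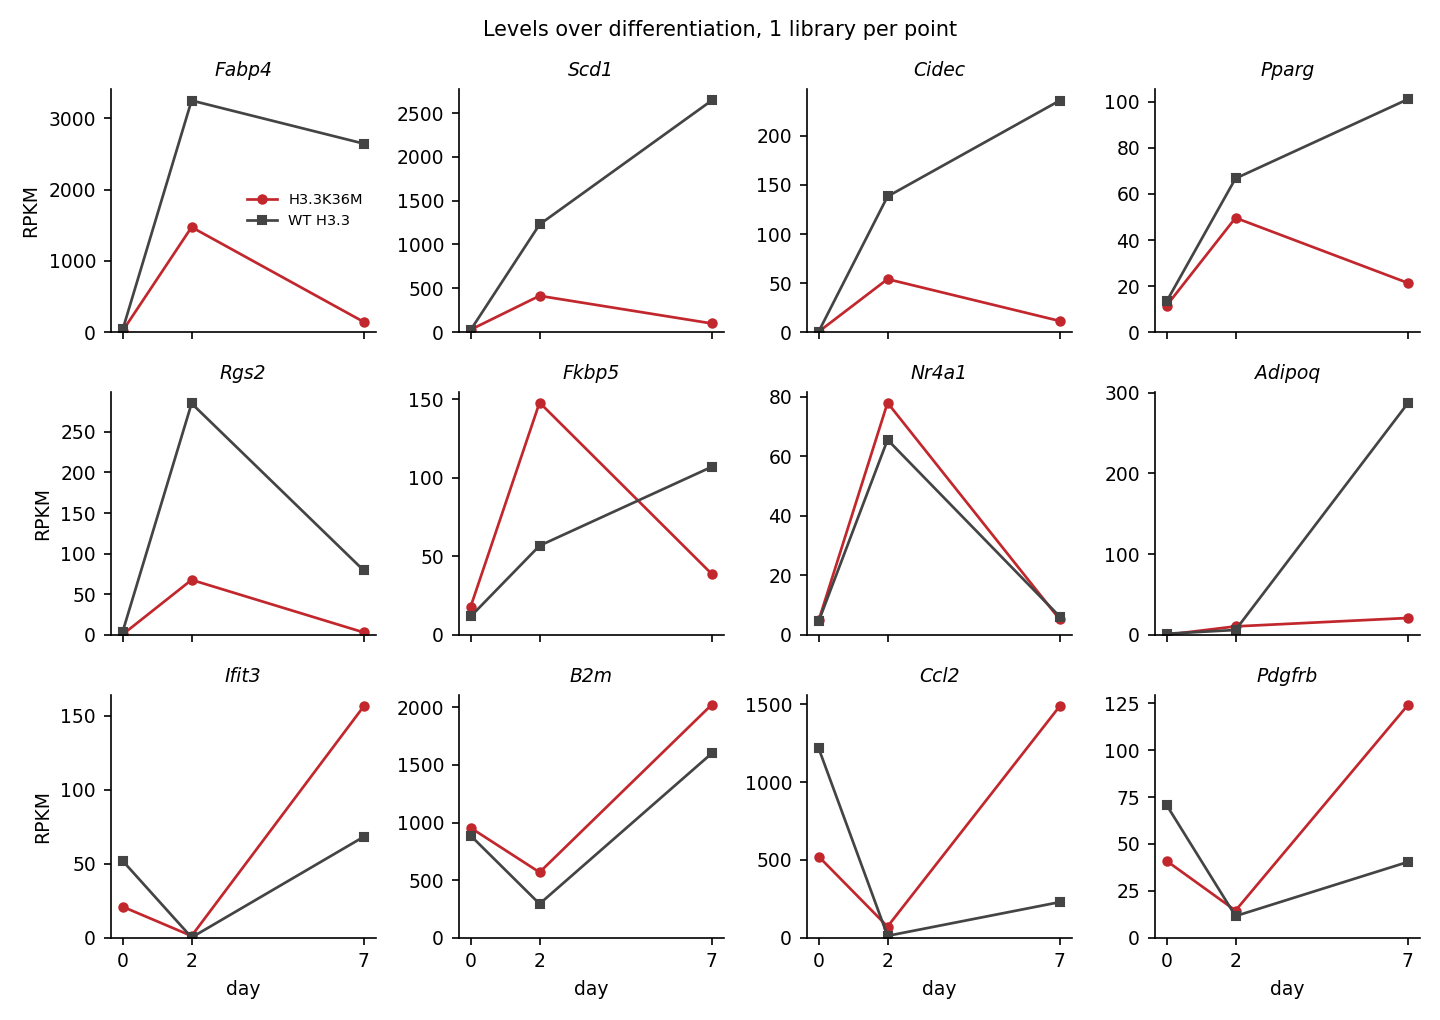
RPKM at D0, D2, and D7 of 12 named genes in H3.3K36M cells (red circles) and WT cells (grey squares), 1 library per point, each panel with its own linear axis from 0. *Fabp4*, *Scd1*, *Cidec*, and *Pparg* peak at D2 in H3.3K36M cells, whereas *Ifit3*, *B2m*, *Ccl2*, and *Pdgfrb* are lowest at D2 in both cell populations.

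Genes that respond to glucocorticoids and cAMP were examined because dexamethasone and IBMX were present until D2 only. Of 19 kept glucocorticoid-responsive genes, 11 were lower and 1 higher, with a median log2 ratio of -1.42. In WT cells 3 of 20 were lower and 4 higher, with a median of 0.06. *Fkbp5*, a chaperone that dampens the receptor, had 18.1, 148, and 38.8 RPKM at D0, D2, and D7 in H3.3K36M cells, and 11.8, 56.8, and 107 in WT cells. *Tsc22d3* (GILZ) had 99.9 and 23.5 RPKM at D2 and D7 and the clock gene *Per1* 37.5 and 10.9, while WT cells had 66.6 and 65.0 for *Tsc22d3* and 22.2 and 21.3 for *Per1*. *Glul*, glutamine synthetase, had 118 and 23.1 RPKM against 151 and 233 in WT cells. The metallothioneins *Mt2* (1003 and 316 RPKM) and *Mt1* (749 and 360), which bind metals, were among the lower genes with the highest D2 levels. The member that was higher was *Lcn2*, a lipocalin of the acute phase (102 and 325 RPKM).

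Of 16 kept cAMP-responsive genes, 8 were lower and 1 was higher, with a median log2 ratio of -0.91. In WT cells 11 of 16 were lower and 0 higher, with a median of -1.47. *Nr4a1*, an orphan nuclear receptor induced by cAMP (chromosome 15 from 101097277 to 101105223), had 4.88, 78.0, and 5.22 RPKM at D0, D2, and D7, and WT cells had 4.61, 65.6, and 6.19. The levels in the 2 cell populations lay side by side at each day. *Rgs2*, a regulator of G protein signalling that is in both lists, had 67.8 and 3.16 RPKM, a log2 ratio of -4.42 (-4.71 to -4.16), against 285 and 79.4 in WT cells. The phosphodiesterases *Pde4d*, *Pde3b*, and *Pde4b*, which degrade cAMP, had log2 ratios of -2.93, -2.64, and -2.24. *Gem*, a small GTPase, was higher (2.51 and 10.6 RPKM). The hormone-responsive lists thus differed in the WT values beside them. In WT cells 3 of 20 glucocorticoid-responsive and 11 of 16 cAMP-responsive genes were lower, against 5.08% of all kept genes. The share of all kept genes that were lower in H3.3K36M cells was 7.02%.

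Among genes with at least 10 RPKM and 50 reads in the higher library, the largest decrease was that of *Prl2c3*, of the proliferin family, with 203 RPKM at D2 and 8.26 at D7, a log2 ratio of -4.62 (-4.95 to -4.31). *Igfbp2*, which binds insulin-like growth factors, had 60.7 and 3.27 RPKM, and the imprinted *Peg10* had 119 and 7.79. The adipocyte genes *Arxes1* (66.9 and 4.20 RPKM), *Arxes2* (104 and 10.4), *Abhd15* (37.9 and 3.91), and *Trarg1* (103 and 11.4) also stood among the 15 largest decreases, as did *Map7d2*, *Ephx2*, *Tmem100*, *Ehd3*, and *Rnf125*. *Prl2c3*, *Arxes1*, and *Arxes2* have near-identical copies whose reads may have been split in counting. Other lower genes with high levels at D2 were *Igfbp4* (475 and 118 RPKM), *Cd164* (451 and 137), the collagen *Col6a2* (533 and 233), *Hint1* (534 and 227), *Mgst1* (417 and 194), the nuclear RNA *Malat1* (977 and 318), and the short ribosomal protein gene *Rpl41* (448 and 189).

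Interferon-stimulated genes had the highest median of the lists. All 28 listed genes were kept and 27 were higher at D7, with a median log2 ratio of 4.35. *Ifi27* was not past 2-fold (73.3 and 90.2 RPKM). In WT cells all 28 were higher, with a median of 5.78. The median level over the list was 23.6, 4.33, and 67.1 RPKM at D0, D2, and D7 in H3.3K36M cells, and 40.6, 0.697, and 52.8 in WT cells, so D2 was the lowest of the 3 days in both and the D2 level of WT cells was the lower of the 2. *Ifit3*, an antiviral protein induced by interferon (chromosome 19 from 34658021 to 34663221), had 21.0, 1.28, and 156 RPKM. It was 122-fold higher at D7 than at D2, a log2 ratio of 6.93 (6.43 to 7.48), from 32 and 3815 reads. *Oas2*, which senses double-stranded RNA, had 0.475 and 57.1 RPKM, and *Mx1*, an antiviral GTPase, 0.148 and 13.0 RPKM from 5 and 427 reads. The transcription factor *Irf7*, which amplifies the response, had 3.84 and 171 RPKM. *Isg15*, a ubiquitin-like modifier, had 19.2 and 282 RPKM, and the chemokine *Cxcl10* had 10.8 and 276. Families such as *Ifit*, *Oas*, *Mx*, and *Gbp* have close copies, and the counting of shared reads is not given in the sources used here.

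The promoters of the interferon-stimulated genes were searched for the interferon-stimulated response element, written GAAANNGAAA on either strand, because 27 of the 28 listed genes were higher together. In RefSeq promoters (GRCm38.p6), the 250 bases before each start held this motif in 3.46% of 27025 genes, in 3.12% of 9492 kept genes, in 6.35% of 1385 genes that were higher at D7, and in 1.83% of 602 that were lower. Of the 20 listed genes found in the promoter table, 10 (50%) held it. The list was chosen as genes that respond to interferon, and the higher genes include its members. These shares are therefore not separate and test nothing. A match is only a description of these letters. The 3 promoters shown are those of the listed genes with a match and the largest log2 ratios, with matches in capitals, read 5′ to 3′ on the strand of the gene; TTTCNNTTTC is the same motif on the other strand.
Ifit3: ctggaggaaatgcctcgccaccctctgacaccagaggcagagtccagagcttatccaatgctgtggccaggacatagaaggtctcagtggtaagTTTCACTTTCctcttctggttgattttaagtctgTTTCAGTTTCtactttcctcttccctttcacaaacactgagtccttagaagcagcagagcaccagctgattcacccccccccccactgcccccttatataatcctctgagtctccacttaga
Gbp3: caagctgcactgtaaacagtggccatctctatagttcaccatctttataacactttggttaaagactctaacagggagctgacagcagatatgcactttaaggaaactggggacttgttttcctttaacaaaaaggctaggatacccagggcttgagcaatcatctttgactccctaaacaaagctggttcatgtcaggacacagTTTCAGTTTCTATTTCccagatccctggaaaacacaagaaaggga
Rsad2: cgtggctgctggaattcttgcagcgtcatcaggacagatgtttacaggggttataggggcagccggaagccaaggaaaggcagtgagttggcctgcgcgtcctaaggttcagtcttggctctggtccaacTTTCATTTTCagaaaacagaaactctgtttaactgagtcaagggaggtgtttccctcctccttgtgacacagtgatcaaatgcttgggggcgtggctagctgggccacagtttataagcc
The *Ifit3* promoter (chr19:34583279-34583528, + strand) held 2 matches, which begin 156 and 122 bases before the start. In *Gbp3*, a guanylate-binding GTPase (chr3:142559794-142560043, + strand), 2 overlapping matches begin 45 and 39 bases before it, and in *Rsad2* (viperin, chr12:26456453-26456702, - strand) 1 match begins 120 bases before it. The log2 ratios of these 3 genes were 6.93, 5.87, and 5.57. The cAMP response element TGACGTCA was held by 1 of 12 promoters of cAMP-responsive genes, and by 3.82% of promoters of lower genes against 3.14% of kept genes. The palindromic glucocorticoid response element AGAACANNNTGTTC was held by 1 of 18 promoters of glucocorticoid-responsive genes, by 2 of 9492 of kept genes, and by 0 of 602 of lower genes.

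All 16 genes of MHC class I antigen presentation were higher, the smallest log2 ratio being 1.19, with a median of 2.20. In WT cells 15 of 16 were higher, with a median of 2.71. *B2m*, the shared light chain of class I molecules (chromosome 2 from 121973422 to 121978819), had 954, 568, and 2022 RPKM at D0, D2, and D7, the highest D7 level of all genes that were higher. The heavy chain *H2-K1* had 207 and 625 RPKM at D2 and D7, the peptide transporter *Tap1* 14.7 and 75.8, and the immunoproteasome subunit *Psmb8* 5.02 and 49.5. Reads of the heavy chain genes may be shared among them.

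Of 25 kept chemokines, cytokines, and acute-phase genes, 20 were higher and 0 lower, with a median log2 ratio of 2.38. In WT cells 14 of 23 were higher and 4 lower, with a median of 1.68. *Ccl2*, which attracts monocytes (chromosome 11 from 81849073 to 81850955), had 522, 72.3, and 1487 RPKM at D0, D2, and D7, against 1216, 12.8, and 229 in WT cells. *Saa3*, an acute-phase apolipoprotein (chromosome 7 from 53967368 to 53971046), had 99.6, 66.9, and 1003 RPKM, a log2 ratio of 3.91 (3.77 to 4.05). In WT cells it had 417, 286, and 625 RPKM, a log2 ratio of 1.13 (1.06 to 1.20). The neutrophil attractants *Cxcl5* (1.74 and 91.8 RPKM) and *Cxcl1* (12.7 and 78.5) were higher at D7, and WT cells had 0.253 and 4.22 for *Cxcl5* and 15.2 and 10.3 for *Cxcl1*. The interleukin *Il6* had 1.17 and 3.39 RPKM in H3.3K36M cells and 4.91 and 1.31 in WT cells. *Ccl8* had 0 reads at D2 and 58 at D7, at least 19.8-fold higher with 3 reads in place of 0.

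Of 12 kept complement genes 9 were higher and 0 lower, with a median log2 ratio of 3.86 against 3.36 in WT cells, where 11 of 12 were higher. *C3*, the central component, had 15.9 and 285 RPKM at D2 and D7, *Cfb*, which builds the alternative convertase, 2.74 and 89.3, and *C1s1*, a protease of the classical pathway, 9.29 and 148. By the same minimum level, other genes among the 15 largest increases were the chemokines *Ccl11* (0.893 and 67.4 RPKM) and *Cxcl9* (0.302 and 20.3), the apolipoprotein *Apod* (1.24 and 100.3), *Lgi2* (0.538 and 28.8), and the interferon-responsive *Ifit3b*, *Ifi47*, *Gm4951*, *Phf11d*, *Gbp9*, and *Zbp1*. With a pseudocount of 1 RPKM, the log2 ratio of *Mx1* was 3.60 in place of 6.45 and that of *Cxcl9* 4.03 in place of 6.07.

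Markers of immune and endothelial cells were near 0 beside these increases. Of 9 macrophage markers 1 was kept, *Cd14* (1.12 and 3.61 RPKM), and the summed level of the 9 was 1.38 RPKM at D2 and 4.73 at D7 in H3.3K36M cells, and 0.535 and 2.13 in WT cells. *Ptprc*, which marks white blood cells, had 0 reads at both days in H3.3K36M cells, *Adgre1* and *Itgam* had 1 read each at D2 and 0 at D7, *Csf1r* had 6 and 15 reads, and *Lyz2* 1 and 8. Of 8 endothelial markers 1 was kept, *Tek* (0.137 and 2.08 RPKM). *Pecam1* and *Cdh5* had 4 reads each at D2 and 2 at D7. The summed level of the 8 was 0.365 RPKM at D2 and 2.97 at D7.

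Preadipocyte genes were higher again at D7. All 9 preadipocyte markers were higher in H3.3K36M and in WT cells, with median log2 ratios of 1.89 and 2.42. Their summed level was 470, 420, and 1419 RPKM at D0, D2, and D7 in H3.3K36M cells and 1146, 167, and 970 in WT cells. The summed level of the 10 brown adipocyte markers, most of it *Fabp4* at D2 and D7, was 40.6, 1650, and 233 RPKM in H3.3K36M cells and 61.8, 3708, and 3653 in WT cells. At D7 the adipocyte sum was thus below the preadipocyte sum in H3.3K36M cells and above it in WT cells. In bulk RNA, fewer cells of a type and less RNA per cell cannot be told apart.

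*Pdgfrb*, a receptor of mural and progenitor cells, had 41.0, 14.5, and 124 RPKM at D0, D2, and D7, against 70.7, 11.6, and 40.4 in WT cells. *Pdgfra*, a related receptor of adipocyte precursors, had 11.2 and 53.8 RPKM at D2 and D7, against 5.68 and 48.7. *Ly6a* (Sca-1) had 86.3 and 408 RPKM and *Thy1* 13.2 and 49.2. *Dlk1*, a membrane protein that restrains adipogenesis, had 17.4 and 35.1 RPKM, with a log2 ratio of 1.01 against 2.09 in WT cells. In the broader list of progenitor genes, 10 of 18 kept were higher and 3 lower, with a median of 1.04 against 1.54 in WT cells. The lower ones were *Cd24a*, *Twist2*, and *Zfp423*, with log2 ratios of -2.03, -1.29, and -1.26. For comparison, 15.7% of all kept genes were higher and 7.02% lower in H3.3K36M cells.

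Matrix genes changed in both directions. Shares over all kept genes in H3.3K36M cells, 15.7% higher and 7.02% lower, stand beside the counts given next. Of 22 kept collagens and matrix proteins, 10 were higher and 3 lower, with a median log2 ratio of 0.82 against 1.66 in WT cells. The fibrillar *Col1a1* (147 and 478 RPKM), *Col1a2* (55.1 and 314), and *Col3a1* (99.2 and 200) were higher, as were the proteoglycans *Bgn* (408 and 1961) and *Dcn* (1.40 and 43.3). The basement membrane collagens *Col15a1* (130 and 27.2 RPKM) and *Col4a1* (373 and 167) and the microfibrillar *Col6a2* were lower, and so they were in WT cells. Of 19 kept matrix proteases and inhibitors 12 were higher and 0 lower, with a median of 1.31 against 1.93 over 17 kept in WT cells. *Mmp2*, a gelatinase, had 16.1 and 164 RPKM, and the membrane protease *Mmp14* 44.9 and 260. *Mmp3* and *Mmp13* had 0 reads at D2 and 71 and 38 at D7, at least 24.3-fold and 13.0-fold higher with 3 reads in place of 0, against 0.167 and 0.0842 RPKM in WT cells at D7.

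Contractile genes that respond to SRF had a median log2 ratio of 0.73, with 10 of 22 higher and 1 lower. The actin-binding *Tagln* had 187, 25.0, and 140 RPKM at D0, D2, and D7 and smooth muscle actin *Acta2* 424, 57.5, and 204. In WT cells *Acta2* had 529, 7.73, and 80.7 RPKM. The smooth muscle markers *Myh11* and *Lmod1* had 0.546 and 5.15 RPKM at D7. In the marker lists of other mesenchymal and neural lineages, 3 of 5 kept smooth muscle genes were higher and 0 lower, 1 of 4 osteoblast genes was higher and 1 lower (*Alpl*, with a log2 ratio of -2.55), 0 of 3 chondrocyte genes were higher and 1 lower, 0 of 1 skeletal muscle genes moved past 2-fold, and 2 of 4 Schwann and neural genes were higher and 0 lower. These lists hold too few kept genes to set against the shares over all kept genes, 15.7% higher and 7.02% lower.

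Among 21 kept genes of the Wnt pathway, which restrains adipogenesis, 10 were higher and 1 lower, with a median log2 ratio of 0.50. In WT cells the median was 0.80, over the 17 genes kept there. The secreted inhibitor *Sfrp1* had 8.17, 18.8, and 213 RPKM at D0, D2, and D7, against 51.7, 1.95, and 17.2 in WT cells. *Sfrp2*, of the same family, had 2.43 and 15.1 RPKM at D2 and D7, against 3.24 and 125. *Rspo3*, which amplifies Wnt signals, had 1.97 and 23.8 RPKM, and the ligand *Wnt10b* 0.466 and 1.36. The receptor *Fzd4* was lower (5.91 and 2.80 RPKM). Among all kept genes in H3.3K36M cells, 15.7% were higher and 7.02% lower.

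Mitotic genes and DNA replication genes differed. Of 25 genes of mitosis 7 were higher and 0 lower, with a median log2 ratio of 0.79. The 7 were *Ccnb2* (9.53 and 35.7 RPKM), *Cenpf*, *Cenpe*, *Kif23*, *Plk1*, *Bub1b*, and *Cdc20*. In WT cells 0 of the 25 were past 2-fold, with a median of 0.38. Of 26 genes of DNA replication 0 were higher and 1 was lower, *Rrm2* (150 and 46.3 RPKM), a subunit of ribonucleotide reductase. Their median was -0.26 in H3.3K36M and 0.20 in WT cells. For comparison, 15.7% of all kept genes were higher and 7.02% lower in H3.3K36M cells. The replication list was below both shares.

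**Figure D4:**
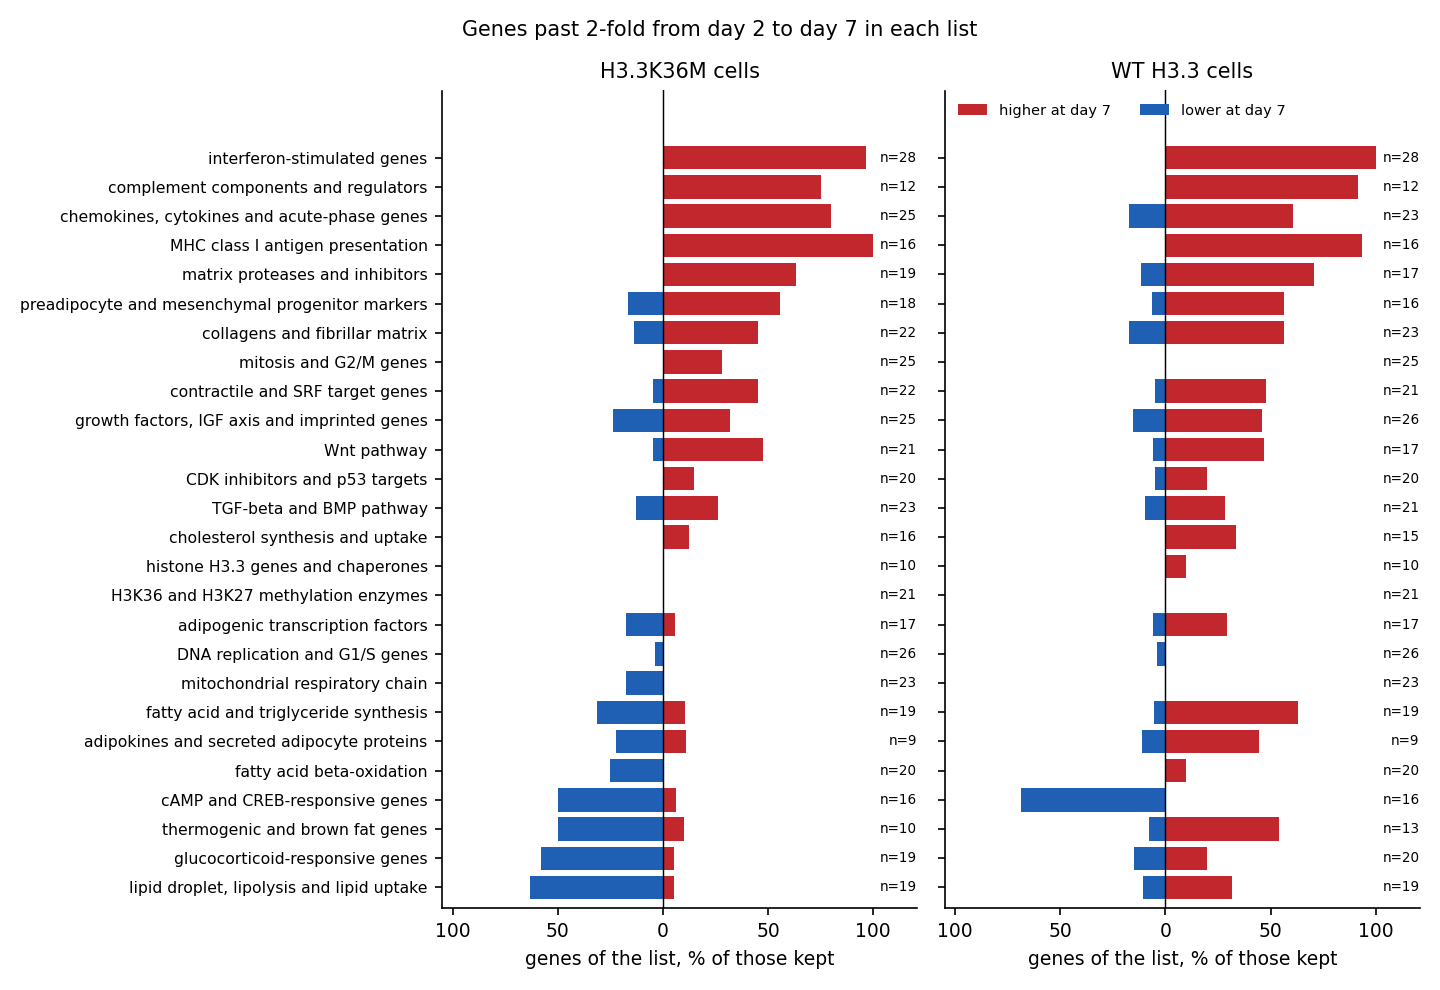
Share of the kept genes of each of 26 lists that were over 2-fold higher (red, to the right) or lower (blue, to the left) at D7 than at D2, in H3.3K36M cells (left) and WT cells (right), with n the genes kept. Lists are ordered by their median log2 ratio in H3.3K36M cells. The lists of lipid droplets and uptake, fatty acid and triglyceride synthesis, and beta-oxidation have mostly blue bars on the left panel and mostly red bars on the right. The interferon and antigen presentation lists are red in both.

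The change in H3.3K36M cells was set beside that in WT cells, which shares no library with it. In WT cells 12182 genes were kept, of which 1912 were higher at D7 (15.7%) and 619 lower (5.08%). Across 11696 genes above 0 in the 4 libraries, the log2 ratios of the 2 cell populations had a Pearson r of 0.71 and a Spearman rho of 0.62, as a description across genes. Of the genes higher in H3.3K36M cells 53.3% were also higher in WT cells, and of those higher in WT cells 54.4% were higher in H3.3K36M cells. Of the genes lower in H3.3K36M cells 28.2% were lower in WT cells, and of those lower in WT cells 39.9% were lower in H3.3K36M cells.

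Genes past 2-fold in opposite directions were few: 50 were lower in H3.3K36M and higher in WT cells, and 23 were the reverse. With at least 5 RPKM in the higher library of each pair, these numbers were 23 and 2. *Ehd3*, a protein of membrane recycling (chromosome 17 from 74154181 to 74181433), had 13.0 and 1.48 RPKM in H3.3K36M cells and 1.62 and 6.36 in WT cells. *Car2*, a carbonic anhydrase (chromosome 3 from 14886426 to 14900769), had 8.43 and 1.56 RPKM against 6.38 and 41.3. *Cdo1*, which oxidizes cysteine, had 162 and 31.3 RPKM against 88.7 and 424. *Acss3*, a mitochondrial acyl-CoA synthetase, had 5.10 and 1.38 RPKM against 1.84 and 24.0. The potassium channel *Kcnk3*, a gene of brown fat, had 8.17 and 2.58 RPKM against 4.67 and 17.0, and *Npr3*, the clearance receptor of natriuretic peptides, 7.09 and 1.84 against 7.37 and 21.5. In the other direction, *Inhba*, a subunit of activin that inhibits adipogenesis (chromosome 13 from 16103684 to 16119044), had 43.2, 3.76, and 12.8 RPKM at D0, D2, and D7 in H3.3K36M cells and 57.1, 16.4, and 4.17 in WT cells. The D2 levels of *Ehd3*, *Acss3*, *Cdo1*, *Kcnk3*, and *Inhba* differed between the populations, while those of *Car2* and *Npr3* were closer.

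**Figure D5:**
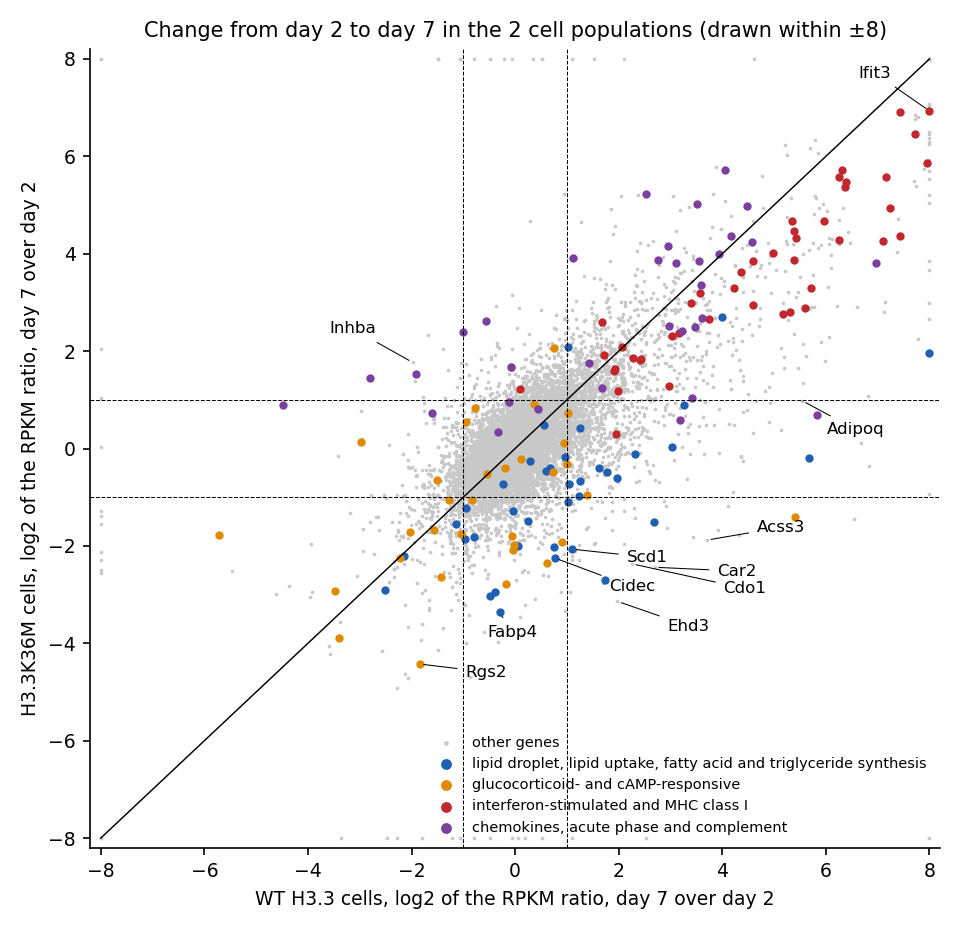
Log2 RPKM ratio of D7 to D2 in WT cells (x axis) and H3.3K36M cells (y axis) for genes kept in both, 1 point per gene, drawn within -8 and 8. The solid line marks equal ratios and the dashed lines 2-fold; the interferon-stimulated and MHC class I genes (red) lie at upper right, and lipid genes (blue) lie mostly below the solid line.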

How the data were processed

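For 14 RNA-Seq libraries, 1 per condition, the deposited files hold RPKM computed by the authors over 29082 RefSeq transcripts. RNA was purified with Dynabeads, and the submitters' processing notes name CASAVA 1.8.2 and mm9; the RNA mapper, the counter, and their use of strand are not given in the sources used here. A RefSeq table (GRCm38.p6) paired 28436 transcripts with a symbol, and the rest kept their own identifier. Coordinates are those of GENCODE M1 (mm9).

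Whole reads were recovered from the RPKM of all 28221 transcripts above 0, 8239 at an annotated length and 19982 at the smallest length that gave whole reads, which can understate reads and widen intervals. Ratios were taken on RPKM without a pseudocount, so a gene at 0 in 1 library was past 2-fold. The steps were tested on simulated data with Python 3.11.15, NumPy, pandas, and SciPy. The simulation supplied the true transcript lengths, so it did not test the choice of the smallest length.

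The 26 gene lists and 9 marker lists, and the genes described, were chosen with earlier results of these data known. Genes are named if among the 15 largest changes per direction (at least 10 RPKM and 50 reads), the 10 highest levels, the 6 largest opposite changes, the lists, or the genes the study names. *Hmgcs1*, *Col12a1*, *H19*, and *Cd68* were listed but not matched. ChIP-Seq files were not used here. The values of some listed genes are not reported here.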

Additional observations from a re-analysis of the deposited data

Results flagged for a closer look

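Among the genes whose ratio of D7 to D2 was past 2-fold in opposite directions in H3.3K36M and WT cells, with at least 5 RPKM in the higher library of each pair, 8 are listed here. They are the 6 genes lower in H3.3K36M cells whose smaller change of the 2 was largest, and the 2 genes that were higher. With 1 library per condition, the difference was not tested. The log2 ratio in H3.3K36M cells was -2.44 for *Car2*, -2.37 for *Cdo1*, -3.14 for *Ehd3*, -1.88 for *Acss3*, -1.66 for *Kcnk3*, and -1.94 for *Npr3*. In WT cells the ratios of these genes were 2.70, 2.26, 1.98, 3.70, 1.87, and 1.54. Because the genes were chosen by the size of these opposite changes, their counting intervals add no support. *Inhba* had a log2 ratio of 1.77 in H3.3K36M cells and -1.98 in WT cells. The small nucleolar RNA *Snord52* had 2.04 and -1.39, but from 1 read at D2 and 4 reads at D7 in H3.3K36M cells, with a counting interval from -1.30 to 7.66.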

How the results depend on the processing

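The numbers of higher and lower genes depended on the floor and on the threshold. With RPKM above 0 in either library, 3843 genes were higher and 2661 lower in H3.3K36M cells, and 3860 and 2091 in WT cells. With at least 1 RPKM in both libraries, 1262 were higher in H3.3K36M and 1100 in WT cells. With at least 5 RPKM in either library, 1174 were higher and 562 lower in H3.3K36M cells, and 1087 and 395 in WT cells. At a 3-fold threshold these numbers were 1073 and 378 in H3.3K36M cells and 1153 and 227 in WT cells. With the counting interval wholly past 2-fold, 1243 were higher and 406 lower in H3.3K36M cells, and 296 lower in WT cells. Of the genes induced by D2 in WT cells, 215 were lower in H3.3K36M cells at 3-fold and 276 with the interval past 2-fold, and of the repressed genes 702 were higher at 3-fold. The other 60 counts lay within 1.5 times those reported, 6 of them without genes under 1000 nt, a setting chosen after seeing the data. No direction of 64 genes reversed under 6 settings. Counting each gene under each setting, 57 values lay outside the counting interval of the gene and 327 within it. With a pseudocount of 1, the log2 ratio was 6.11 for *Ifit3*, 3.60 for *Mx1*, 3.67 for *Gm4951*, and 4.03 for *Cxcl9*, so the order of the largest increases depends on this choice. In addition, the median of 1 list of 35, histone H3.3 genes and chaperones, changed sign, from 0.04 to -0.02 and -0.05 with rescaled libraries.

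No paired analysis was possible because each condition has 1 library, and for the same reason no replicate was left out. Depth limits genes of a few reads: 62 of the higher genes were at 0 at D2 and 56 of the lower genes at 0 at D7. Rescaling the libraries by the median ratio or the upper quartile would move every log2 ratio in H3.3K36M cells by -0.06 or -0.09.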

Other observations

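Growth factor genes had changes in both directions within H3.3K36M cells. Of 25 kept genes of the insulin-like growth factor axis, other growth factors, and imprinted genes, 8 were higher and 6 lower, with a median log2 ratio of 0.64 against 0.62 in WT cells. The binding proteins of insulin-like growth factors differed among themselves. *Igfbp5* had 7.76 RPKM at D2 and 1.09 at D7, whereas *Igfbp3* had 22.2 and 95.2, *Igfbp6* 11.1 and 33.1, and *Igfbp7* 241 and 563. *Vegfa*, which drives vessel growth, had 212 and 64.3 RPKM, and *Angpt1*, a ligand of the *Tek* receptor, 0.392 and 4.14. Of 23 kept genes of the TGF-β and BMP pathways 6 were higher and 3 lower, with a median of 0.36. The lower ones were *Id1* (66.7 and 13.4 RPKM), *Id2* (40.2 and 12.6), and *Id3* (168 and 52.8), which are targets of BMP signals, and the BMP antagonist *Grem1* (59.4 and 384) was higher. In WT cells *Id1*, *Id2*, and *Id3* had log2 ratios of -0.99, 0.55, and 0.82. Shares over all kept genes in H3.3K36M cells were 15.7% higher and 7.02% lower.

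In 4 other lists the shares of higher genes were near or below that over all kept genes, 15.7%. None of 21 enzymes of H3K36 and H3K27 methylation was, and *Nsd2*, which adds dimethylation to H3K36, had a log2 ratio of -0.03. None of 10 histone H3.3 genes and chaperones was. The reads of *H3f3a* and *H3f3b* may include reads of the vector, which was not examined. Of 16 kept genes of cholesterol synthesis and uptake 2 were higher and 0 lower, with a median log2 ratio of 0.27. Of 20 CDK inhibitors and p53 targets 3 were higher, *Bbc3*, *Pmaip1*, and *Cdkn1c*, and 0 lower, against 7.02% lower over all kept genes.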
